A study of Mus musculus with 13 samples.

Results

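The earliest time point after γ-irradiation, 1 h, was compared with 0 h in oocytes of CD-1 mice whose ovaries received 0.5 Gy at postnatal day P5. The members are 4 of the 13 RNA-seq libraries of the series, chosen by their dose and time labels, with 2 libraries at 0 h and 2 at 1 h. At each time point the labels give 1 library as the first generation and 1 as the second, and they name no allele or agent besides the irradiation. Ovaries were irradiated after a night in culture, in medium with serum, antibiotics, pyruvate, N-acetyl-L-cysteine and an insulin, transferrin and selenium supplement. The 0 h libraries carry the label of 0.5 Gy too, but the study describes them as taken before irradiation. Each time point came from 4 pooled ovaries, from which oocytes were set free with trypsin, so that a library averages over ovaries and over follicle stages. Whether the generations were batches, and whether replicates came from separate animals, is not stated, so p-values measure only the spread between these libraries, which may be technical.

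Oocytes of primordial follicles are held in meiotic arrest for a long time and store TAp63α, the long isoform of the p53 relative p63, as an inactive dimer. After DNA double-strand breaks the kinases ATM and CHK2 start a signal that ends in phosphorylation of TAp63α, which then forms active tetramers and turns on genes that p53 also controls, among them those of the proteins NOXA and PUMA that trigger apoptosis. In many somatic cell types, the first transcripts to respond to stress are immediate early genes such as *Fos* and *Egr1*, whose transcription needs no new protein, and genes downstream of NF-κB. The comparison of 1 h with 0 h asks which transcripts differed before the rise of p53 target genes that the later time points show.

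For 1 p53 target and 1 NF-κB target, whose early values are given later and are not typical of their lists, the promoter is shown, 250 bases before the annotated start in the RefSeq annotation of GRCm38.p6. *Cdkn1a* is the classic p53 target gene, and its window chr17:29090729-29090978 on the plus strand holds 2 matches to the decamer of the p53 consensus with a spacer of at most 13 bases, from 73 to 64 and from 51 to 42 bases before the start, which are in capitals. Among 32851 promoters of this length, 21 or 0.0639% hold such a pair, and 7.13% hold at least 1 decamer. *Cxcl1* codes for a chemokine that attracts neutrophils, and its window chr5:90890995-90891244 on the plus strand holds a match to the NF-κB consensus from 71 to 62 bases before the start, in capitals, as do 5.00% of the promoters. Both strands were searched, and a match is only a description of the letters.
Cdkn1a: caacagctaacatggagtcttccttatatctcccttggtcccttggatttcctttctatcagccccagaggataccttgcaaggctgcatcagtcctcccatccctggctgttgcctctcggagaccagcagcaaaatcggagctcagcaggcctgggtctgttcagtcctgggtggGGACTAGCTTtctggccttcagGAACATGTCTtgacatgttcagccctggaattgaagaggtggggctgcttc
Cxcl1: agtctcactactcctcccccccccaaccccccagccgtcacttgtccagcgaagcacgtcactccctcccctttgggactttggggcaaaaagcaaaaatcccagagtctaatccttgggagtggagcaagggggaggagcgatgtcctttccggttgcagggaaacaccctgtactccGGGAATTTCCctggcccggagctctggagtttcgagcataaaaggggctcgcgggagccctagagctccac

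The 0 h libraries held 26081298 and 15709549 estimated reads (the first and the second generation) and the 1 h libraries 26499249 and 27736274. Protein-coding genes took between 84.5% and 86.3% of the reads. The second-generation library of 0 h was thus the shallowest, and it also had the largest share of mitochondrial transcripts, 7.28% against 4.83% to 5.18% in the other 3 libraries. The 23 oocyte markers summed to 9346 and 8860 CPM (counts scaled to the library total and edgeR's TMM factors, where 1 CPM stands for 14.8 to 26.8 reads in the 4 libraries) at 0 h and to 8512 and 10006 CPM at 1 h, so that the groups overlapped. None of the 23 was at 0 in any of the 4 libraries, so that oocyte RNA was present, which does not set oocytes apart from whole ovary. *Zp3*, which codes for a protein of the zona pellucida, had 664 and 472 CPM at 0 h and 439 and 752 CPM at 1 h, and *Gdf9*, an oocyte growth factor, had 653 and 315 CPM against 351 and 611 CPM. In both genes the 0 h library of the first generation and the 1 h library of the second were the higher ones of their group. The 20 granulosa markers summed to 2647 and 2155 CPM at 0 h and 2325 and 2537 CPM at 1 h, so that RNA of somatic ovarian cells was present throughout. Fewer cells of a type and less RNA per cell cannot be told apart in such libraries.

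No gene was called between 1 h and 0 h. Of 28468 genes tested with edgeR's quasi-likelihood test in a model of the 8 libraries of 0.5 Gy, 0 (0.0%) passed a Benjamini-Hochberg adjusted p of 0.05 together with a log2 fold change beyond 1 in either direction. The smallest adjusted p was 0.534. An unadjusted p under 0.05 was found for 1133 genes (3.98%), 618 of them higher at 1 h (2.17%) and 515 lower (1.81%). limma-voom called 0 genes, with 967 at an unadjusted p under 0.05, and DESeq2 called 20 of 23993 genes with an adjusted p (0.0834%), 8 higher and 12 lower. In simulated counts of this comparison on 28468 genes, edgeR recovered 99 of 200 genes changed by 2 on the log2 scale and called 12 unchanged genes. The 200 genes were drawn from those with a mean above 1 CPM, and the counts held no difference between generations. Changes of that size or less could thus be missed with 2 libraries a group, and changes in less abundant genes were not tried. For a single gene, an exact permutation test of 2 against 2 libraries cannot go below a two-sided p of 0.333, and none was run.

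The generations were then compared gene by gene, with the difference of 1 h minus 0 h in log2 CPM taken within each generation. Both differences exceeded 1 in the same direction for 652 genes that were higher at 1 h (2.29% of the genes tested) and for 746 that were lower (2.62%). In 1382 genes (4.85%), 1 generation was higher by more than 1 and the other lower by more than 1, so that genes with opposite differences were about as many as the 1398 with like differences. Read totals in the study's own material and in the deposited libraries put the generations of 1 h and 4 h the opposite way round, so the pairing is in doubt. With the generations of the 1 h libraries exchanged, 1312 genes differed alike and 1718 in opposite directions. The sign was the same in both generations for 50.1% of the genes. Across genes, which are not independent replicates, the differences of the generations had an r of 0.0137 over all 28468 genes and 0.0165 over the 10768 genes with a mean of at least 10 CPM. The differences between the 0 h libraries had an SD of 1.21 over all genes and those between the 1 h libraries 1.03, beside 1.04 and 1.07 for the changes from 0 to 1 h within the generations. Over the 10768 genes with a mean of at least 10 CPM the changes within the generations had SDs of 0.515 and 0.566, below the 0.724 between the 0 h libraries and the 0.604 between the 1 h libraries. Over the 2232 genes with at least 100 CPM they were 0.341 and 0.455 against 0.745 and 0.574.

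**Figure D1:**
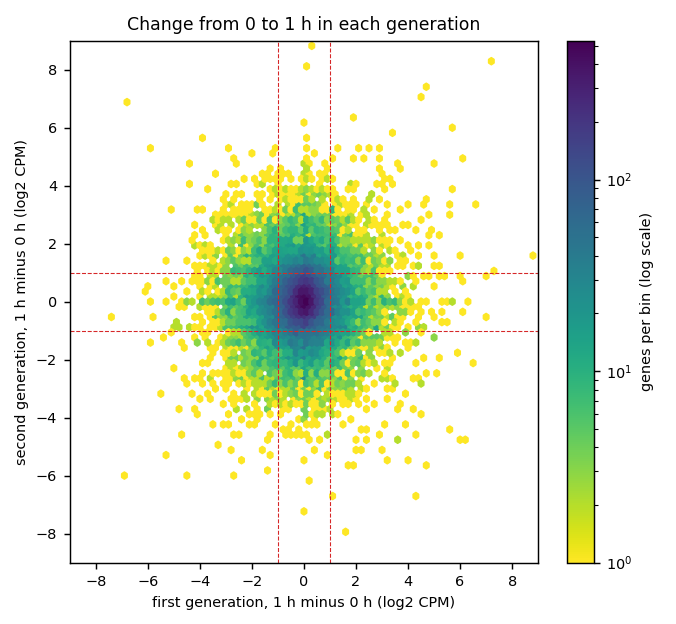
Change from 0 to 1 h in log2 CPM in the first generation (horizontal axis) and in the second (vertical axis), with the shade of a bin giving the number of genes on a log scale and dashed lines at 1 and -1. The cloud of 28468 genes is round, with 652 genes in the upper right corner beyond the lines, 746 in the lower left and 1382 in the other corners together.

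Like and opposite differences were both found mostly in genes with few reads. Of 10440 genes with a mean under 1 CPM over the 4 libraries, 9.14% differed by more than 1 in the same direction, and of 7260 genes from 1 to 10 CPM 5.50% did. The share was 0.492% of 8536 genes from 10 to 100 CPM and 0.134% of 2232 genes above. In the most abundant class 3 genes differed alike, 1 higher and 2 lower, and 1 differed in opposite directions.

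**Figure D2:**
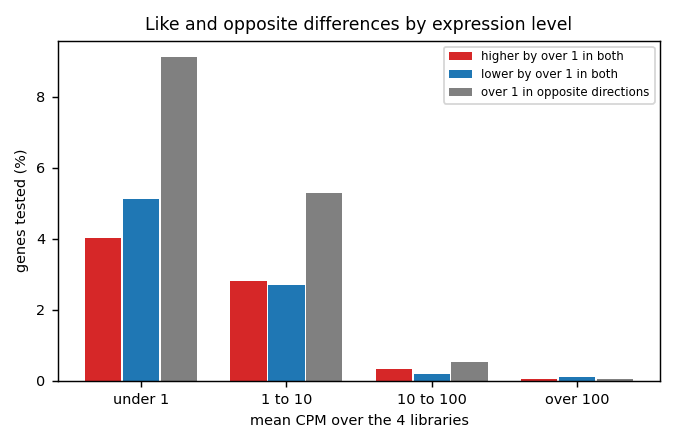
Share of the genes tested, in percent, that were higher at 1 h by more than 1 (log2 CPM) in both generations, lower in both, or over 1 in opposite directions, in 4 classes of mean CPM. The grey bars of opposite differences are close to the sum of the red and blue bars in each class but the most abundant one, where 3 genes differed alike and 1 oppositely.

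Protein-coding genes with a mean of at least 10 CPM were looked at first, because their values rest on more reads on average. In some of them single libraries still had few reads, such as *Gm10320* with 7 at 0 h and 18 at 1 h in the first generation. This group of genes was chosen after the values were seen. Of 10020 such genes, 18 were higher (0.18%) and 14 lower (0.14%) by more than 1 in both generations, and 32 (0.319%) differed in opposite directions. Of the 32 genes that differed alike, 16 of the 18 higher and 12 of the 14 lower had groups that did not overlap, the exceptions being *Cspg4*, *Gm10320*, *Pigr* and *Bmp3*. None of the 32 was called by edgeR, with an adjusted p of 1 for each. *Lyn*, a kinase of the Src family (chromosome 4 of GRCm38, 3678115 to 3813122), had 6.71 and 6.41 CPM at 0 h and 15.1 and 14.3 CPM at 1 h, a log2 fold change of 1.18 ± 0.36 (± is the standard error of the fit, here and later). *Mvk*, mevalonate kinase of the sterol pathway, had 5.70 and 7.43 CPM against 14.0 and 16.6 CPM. *Pik3r2*, a regulatory subunit of PI3 kinase, had 7.36 and 10.5 CPM against 18.0 and 22.5 CPM. At 0 h and 1 h of 0.2 Gy the values were 11.5 and 10.1 CPM for *Lyn*, 13.7 and 13.7 for *Mvk*, and 16.8 and 15.6 for *Pik3r2*. In all of these genes the 0 h value of 0.2 Gy lay above both 0 h libraries of 0.5 Gy.

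Among the other higher genes, *Igsf9b*, a synaptic adhesion molecule, had 8.77 and 10.1 CPM at 0 h and 20.3 and 24.1 CPM at 1 h. *Dtx4*, a ubiquitin ligase of the Deltex family, had 10.7 and 14.0 CPM against 27.0 and 29.1 CPM. *Gnl1*, which codes for a GTP-binding protein and overlaps *Prr3* on the other strand, had 5.21 and 5.60 CPM against 13.9 and 18.0 CPM. The 1 h libraries of these 3 genes lay above both 0 h libraries. After 0.2 Gy their values were 31.7 CPM at 0 h and 34.9 at 1 h for *Igsf9b*, 26 and 8.95 for *Dtx4*, and 9.47 and 12.5 for *Gnl1*. Further higher genes with separate groups were *Ephb6*, *Plekhm1*, *Sppl2b*, *Thsd1*, *Cma1*, *Chpf2*, *Gm1673*, *Raet1d* and *Gm20721*, with log2 fold changes from 1.14 to 2.35. *Raet1d* shares 67.7% of its sequences of 30 bases with other genes, and *Gm20721* overlaps *Gnas*. The host transcript of the miR-17 cluster, *Mir17hg*, which does not code for protein, had 13 and 8.64 CPM at 0 h and 29.4 and 23.6 CPM at 1 h.

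Among the lower genes, *Rcan1*, an inhibitor of the phosphatase calcineurin (chromosome 16, 92391953 to 92470867), had 17.1 and 16.6 CPM at 0 h and 8.43 and 8.17 CPM at 1 h, a log2 fold change of -1.0 ± 0.35. Its 1 h values were below those of every other library of 0.5 Gy, since it had between 12.8 and 18.1 CPM in the 4 libraries of 2.5 to 6 h. *Dach1*, a transcriptional corepressor (chromosome 14, 97786853 to 98169765), had 33.4 and 33.1 CPM at 0 h and 11.8 and 15.4 CPM at 1 h, with a log2 fold change of -1.27 ± 0.37, and stayed between 8.04 and 13.6 CPM in the later libraries. At 0 h and 1 h of 0.2 Gy, *Rcan1* had 14.8 and 11.3 CPM and *Dach1* had 14.5 and 10.3 CPM. *Hhip*, an inhibitor of Hedgehog ligands, had 41.1 and 15.5 CPM at 0 h and 12.6 and 3.66 CPM at 1 h. *Itga2*, an integrin subunit that binds collagen, had 10.6 and 20.1 CPM against 5.19 and 9.93 CPM. In *Hhip* and *Itga2* the groups were separate by a narrow margin only, and the libraries of a group differed from each other by more than that margin. *Gramd3*, *Olfr976* and *C87414* were lower too, with log2 fold changes of -1.25, -1.49 and -1.19, and *C87414* shares 69.2% of its sequences of 30 bases with other genes. The other 5 lower genes with separate groups, *Gm14308*, *Arhgap15*, *Nlrp9c*, *Ccdc184* and *Ltf*, come up again among the widest gaps, the DESeq2 calls or the blood cell markers. Of these, *Gm14308* shares 98.65% of its sequences of 30 bases with other genes, so its values are uncertain.

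The 24 protein-coding genes with the widest gap between the groups, at a mean of at least 1 CPM, are given next. Their gaps are wide by the choice of the genes and do not give the size of differences in general. All but *Efcab12*, *Gm14308* and *Cxcl1* had under 1 CPM in both libraries of their low group. These genes thus reached that mean only through the group where they were high. Of the 12 higher genes, 3 had at most 3 reads in each 0 h library, and of the 12 lower genes, 2 had so few in each 1 h library. Of 14841 protein-coding genes with that mean, 90 stood apart upward (0.606%) and 66 downward (0.445%), meaning that the lowest library of 1 group exceeded the highest of the other by more than 1 in log2 CPM, whatever the pairing. edgeR called none of them. The gene with the widest upward gap that does not share most of its sequence with another gene was *Serpinb2*, an inhibitor of plasminogen activators. It overlaps *Serpinb10* on the same strand and shares 11.3% of its sequences of 30 bases with other genes. It had 0.121 and 0.135 CPM at 0 h, from 3 and 2 reads, and 2.39 and 5.71 CPM at 1 h, from 59 and 153 reads, with a log2 fold change of 4.96 ± 1.02 (adjusted p = 1 with edgeR and 0.00841 with DESeq2). Later it had 1.64 CPM at 4 h in the first generation and between 0.263 and 0.413 CPM in the libraries of the second generation, and after 0.2 Gy it had 0.526 CPM at 0 h and 0.607 at 1 h.

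*Lypd3*, a membrane-anchored protein of the Ly6 family that overlaps *Gm26550*, had 0.364 and 0.608 CPM at 0 h and 3.45 and 3.54 CPM at 1 h. *Asprv1*, a protease of the outer skin that processes filaggrin, had 0.202 and 0.203 CPM against 8.19 and 1.38 CPM. *Rarg*, a receptor for retinoic acid, had 0.404 and 0.405 CPM at 0 h and 2.88 and 2.05 CPM at 1 h. *Efcab12*, a protein with EF-hand motifs, had 1.17 and 1.22 CPM against 5.35 and 4.70 CPM, and the library of 0 h at 0.2 Gy held 4.24 CPM, near the 1 h values. *Kcnj5*, a potassium channel subunit, had 0.445 and 0.270 CPM against 2.39 and 2.61 CPM, with 2.98 CPM at 0 h of 0.2 Gy. In these genes the 2 libraries of a group were close to each other except for *Asprv1* at 1 h. *Fjx1*, *Mab21l3*, *Fam90a1a* and *Hist1h2ak* completed the higher genes together with *Gm15023* and *Rps12-ps3*.

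In the other direction, *Cxcl1*, the chemokine gene whose promoter is shown above, had 5.17 and 5.60 CPM at 0 h, from 128 and 83 reads, and 1.18 and 1.23 CPM at 1 h, from 29 and 33 reads. The log2 fold change was -2.14 ± 0.54 (adjusted p = 1 with edgeR and 0.126 with DESeq2), and the libraries of each group were nearly equal. After 0.2 Gy it had 0.672 CPM at 0 h and 1.15 CPM at 1 h, so that the 0 h libraries of 0.5 Gy were higher than either. *Gbp6*, a GTPase induced by interferon, had 3.64 and 3.04 CPM at 0 h and 0.365 and 0.187 CPM at 1 h, with a log2 difference of -3.56 ± 0.63 (adjusted p = 0.978 with edgeR and 0.00421 with DESeq2). It shares 74.5% of its sequences of 30 bases with other genes and overlaps *Gm43302*, so its values are uncertain. *Gja6*, a connexin gene, had 2.42 and 2.16 CPM against 0.284 and 0.149 CPM. *Slfn8*, of the Schlafen family, had 2.59 and 3.71 CPM against 0.527 and 0.634 CPM. *Frmd3*, *Clec2h* and *Tigd3* were lower too, with log2 fold changes from -2.64 to -2.16.

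*Mpo* and *Prg2*, which code for granule proteins of neutrophils and eosinophils, were also among the 12 lower genes. *Prg2* had 3.35 and 17.8 CPM at 0 h and 0.446 and 0.224 CPM at 1 h, and *Mpo* had 0.930 and 5.13 CPM against 0.0811 and 0.149 CPM. In both genes the second-generation library of 0 h was the highest of the 4, and the part of blood cells in this difference was not tested. Of the 24 genes, 3 higher and 4 lower ones share more than 50% of their sequences of 30 bases with other genes, so that salmon could have split their reads differently between libraries. *Gm15023*, with 0 reads in both 0 h libraries and 2.23 and 2.09 CPM at 1 h, shares 100% of them. Against the limit of 3 reads that a count of 0 allows in a library, it was at least 10.3-fold higher at 1 h. *Gm6205* shares 96.4% and had 8.65 and 4.72 CPM at 0 h and 0 reads at 1 h, at least 38.9-fold lower. Both limits cover counting error only, and leave out how salmon split shared reads. In other libraries *Gm6205* was also at 0 or at several CPM, with 4.44 CPM in the second-generation library of 4 h and 0 in that of 6 h. At 0.2 Gy it had 4.41, 0, 2.18, 0 and 4.77 CPM from 0 h to 6 h.

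**Figure D3:**
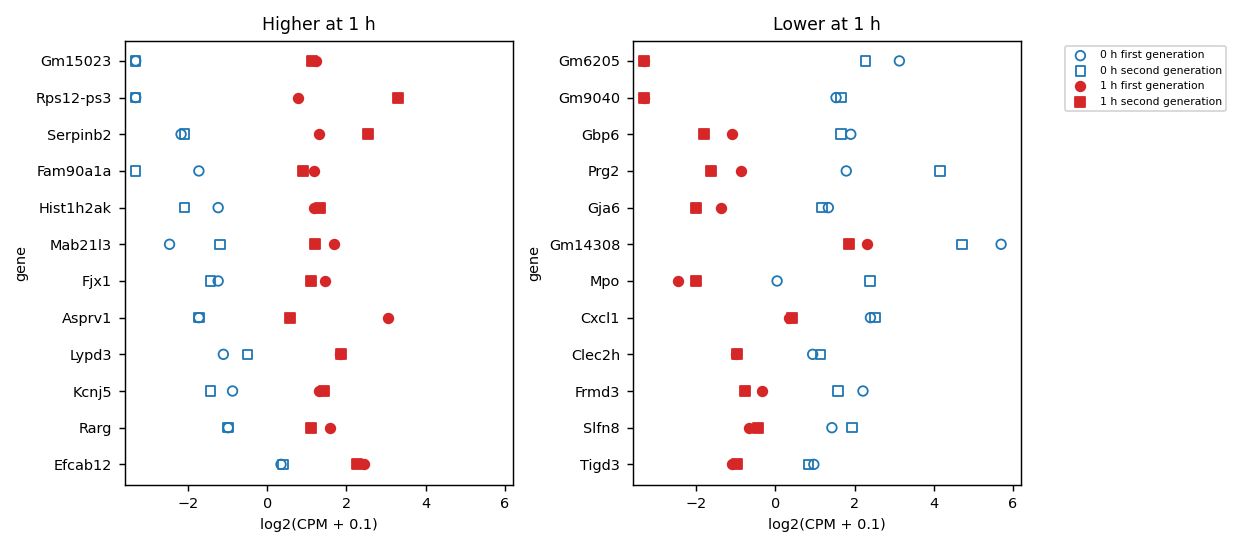
Level of the 24 genes with the widest gap, on the log2 scale of CPM + 0.1, with 1 marker for each of the 4 libraries (open blue at 0 h, filled red at 1 h, circles for the first generation and squares for the second). The 2 groups are apart in each row by construction of the choice; most values lie below 10 CPM, and those of *Gm14308*, with 51.8 and 26.2 CPM at 0 h, are the highest.

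The 20 genes that DESeq2 called were described too, since this tool and edgeR differed. In all 20 the groups did not overlap, although in *Krtdap* they all but touched, 17 stood apart by more than 1, and 8 were among the 24 above. *Arhgap15*, an inhibitor of the GTPase Rac that overlaps *Arhgap15os*, had 445 and 1254 CPM at 0 h and 142 and 140 CPM at 1 h, with a log2 difference of -2.58 ± 0.52 (adjusted p = 1 with edgeR and 0.000127 with DESeq2). It had between 44.4 and 104 CPM from 2.5 to 6 h, and 8.04 and 9.92 CPM at 0 and 1 h of 0.2 Gy, below all libraries of 0.5 Gy. At 2.5, 4 and 6 h of 0.2 Gy it had 32.3, 152 and 27.5 CPM. *Ccdc184*, a little-described coiled-coil gene, had 55.7 and 116 CPM at 0 h, 21.7 and 12.2 CPM at 1 h, and 0.555 and 0.667 CPM at the same times of 0.2 Gy. Its later libraries of 0.2 Gy, at 2.5, 4 and 6 h, had 23.7, 22.6 and 58.2 CPM. *H2afj*, a histone H2A variant that overlaps *Gm44364*, had 3.56 and 3.17 CPM at 0 h and 13.9 and 13 CPM at 1 h. Its log2 fold change was 2.01 ± 0.45 with edgeR, which did not call it, and 1.51 with DESeq2 (adjusted p = 0.0283). It kept 11.4 to 23.6 CPM later, and it had 9.30 CPM at 0 h and 9.38 at 1 h of 0.2 Gy. *Gpr20*, an orphan receptor, had 1.13 and 0.743 CPM against 4.01 and 8.73 CPM. *Krtdap*, made by differentiating keratinocytes, had 0.485 and 0.0675 CPM at 0 h and 16.5 and 0.485 CPM at 1 h, so that nearly all of it was in 1 library. *Nlrp9c*, of the NLR family that oocytes express, had 28.5 and 8.37 CPM against 2.15 and 2.91 CPM. Of the 20 genes, 7 share more than 50% of their sequences of 30 bases with other genes, among them the pseudogene *Gm15801* with 100%. It had 0 reads in both 0 h libraries and 4.13 and 4.70 CPM at 1 h, at least 20.4-fold higher, and the smallest adjusted p with both tools (0.534 with edgeR and 9.15e-07 with DESeq2). This limit, too, leaves out how salmon split shared reads.

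p53 target genes had small differences, more of them upward than downward. Of 35 targets tested, 23 had a log2 fold change above 0, as had 50.6% of all genes and 56.5% of protein-coding genes with a mean of at least 1 CPM. In 11 targets both 1 h libraries lay above both 0 h libraries, which was 31.4% against 16.0% of all genes and 18.3% of those protein-coding genes. In 1 target, *Polk*, both lay below, against 14.8% of all genes. None was called, none differed by more than 1 in both generations, 4 had an unadjusted p under 0.05, all higher, and the median log2 fold change was 0.14 beside 0.01 for all genes. The median stayed between 0.11 and 0.27 when any 1 of the 4 libraries was left out. *Cdkn1a*, the cell cycle inhibitor p21, had 3.72 and 4.25 CPM at 0 h and 6.33 and 11.6 CPM at 1 h, a log2 fold change of 1.19 ± 0.44 (adjusted p = 1 with edgeR), before 57.5 CPM at 2.5 h, 45.8 and 94.3 CPM at 4 h and 63.1 CPM at 6 h. *Eda2r*, a receptor of the TNF family, had 3.48 and 2.09 CPM against 6.69 and 5.41 CPM, with a log2 fold change of 1.12 ± 0.36.

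*Psrc1*, which acts at the mitotic spindle, had 8.0 and 6.14 CPM at 0 h and 12.5 and 17.0 CPM at 1 h. *Zmat3*, an RNA-binding regulator, had 12.5 and 14.9 CPM against 22.3 and 21.2 CPM. *Phlda3*, an inhibitor of Akt, had 2.38 and 1.69 CPM against 3.45 and 4.37 CPM, and *Sesn2*, an inhibitor of mTORC1, had 2.47 and 2.97 CPM against 4.26 and 5.15 CPM. *Sfn*, also abundant in stratified epithelium, had 0.323 and 1.01 CPM against 2.55 and 1.64 CPM. *Bax*, an effector of apoptosis, had 42.2 and 29.3 CPM against 47.9 and 55.8 CPM. In all of these the groups did not overlap, but the gap was below 1 on the log2 scale, and 0.18 for *Bax*. *Dcxr*, *Tnfrsf10b* and *Gdf15* complete the 11 targets, with gaps of 0.18, 0.22 and 0.0012, so that the groups of *Gdf15* all but touched. After 0.2 Gy, with 1 library a time point and no test, 5 of the 11 targets were higher at 1 h than at 0 h and 6 were lower. *Cdkn1a* (6.72 and 13.7 CPM) and *Zmat3* (12.8 and 23.3 CPM) were among the higher ones, and *Eda2r* (7.92 and 4.04 CPM) and *Phlda3* (2.72 and 1.15 CPM) among the lower ones.

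Other targets had overlapping groups at 1 h, several of which were much higher later. *Mdm2*, the ubiquitin ligase that limits p53, had 58.0 and 64.0 CPM at 0 h, 53.1 and 75.9 CPM at 1 h and 268 CPM at 2.5 h. *Ccng1*, a cyclin with 45.0 and 79.7 CPM at 0 h and 61.0 and 58.6 CPM at 1 h, had 190 CPM at 2.5 h, and *Trp53inp1* had 74.5 and 85.2 CPM, 79.5 and 94.7 CPM and then 248 CPM. *Pmaip1*, which codes for NOXA, had 0.889 and 2.43 CPM at 0 h and 3.77 and 1.75 CPM at 1 h, and *Bbc3*, which codes for PUMA, had 1.37 and 0.810 CPM against 0.446 and 1.34 CPM. For *Pmaip1* the generations differed in sign, with 2.00 and -0.45. The 2.5 h value rests on a single library of the second generation.

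**Figure D4:**
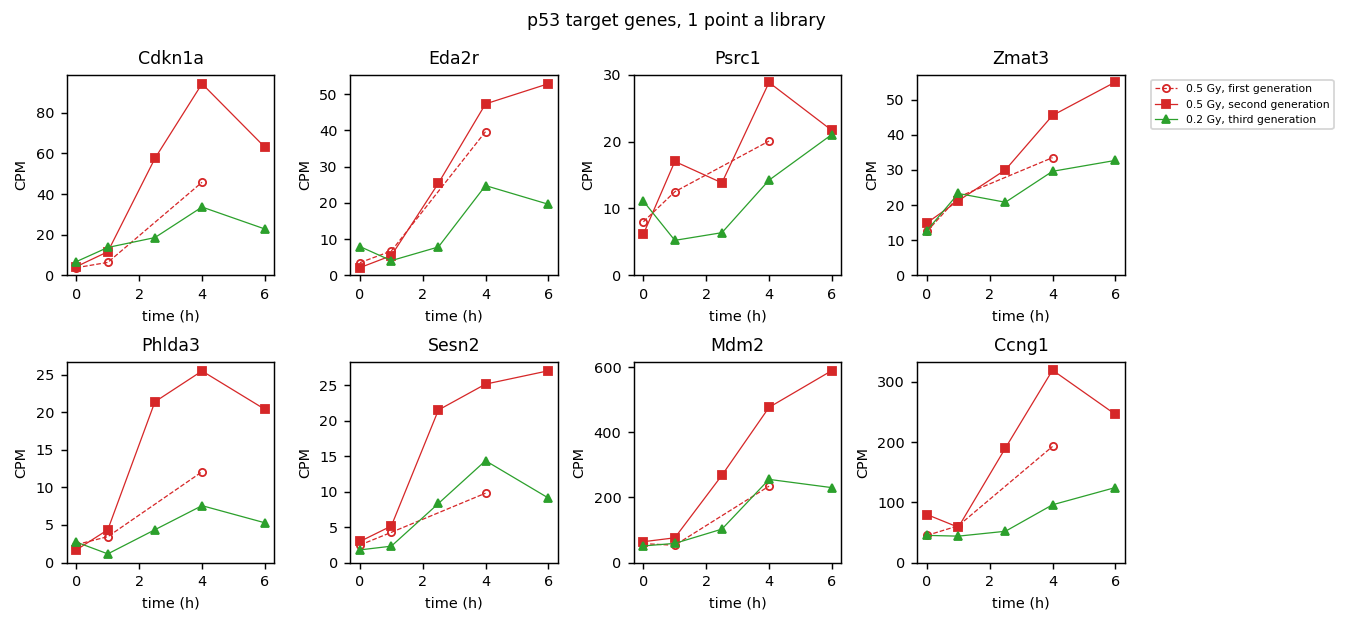
CPM of 8 p53 target genes over time in hours, with 1 point a library; open circles and dashed lines are the first generation of 0.5 Gy, filled squares the second, and green triangles the third generation at 0.2 Gy. From 0 to 1 h the points of 0.5 Gy move little, for *Cdkn1a* from 3.72 and 4.25 to 6.33 and 11.6 CPM, before the later values.

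The genes of p53 family members themselves did not separate. *Trp63*, whose product TAp63α responds to the damage, had 50.7 and 105 CPM at 0 h and 99.5 and 78.5 CPM at 1 h. *Trp53* had 138 and 76.5 CPM against 92.6 and 108 CPM, and *Trp73* had 0.647 and 0.203 CPM against 0.730 and 0.448 CPM. In the list of damage signalling and the p53 family, with *Atm*, *Chek2* and their partners, 0 of 21 genes had an unadjusted p under 0.05, and the median log2 fold change was 0.03. Among 26 genes of double-strand break repair, 1 had such a p, *Lig4*, the ligase of end joining, with 19.8 and 15.5 CPM at 0 h and 10.9 and 8.51 CPM at 1 h. Among 28 genes of the apoptosis machinery, 1 had such a p, *Bok*, a relative of *Bax*, with 33.4 and 29.6 CPM against 52.7 and 49.1 CPM. The medians of these lists were -0.02 and -0.01. In the apoptosis list 3 genes had separate groups upward (10.7% against 16.0% of all genes) and 6 downward (21.4% against 14.8%). The repair list had 4 in each direction (15.4%), and the list of damage signalling 5 upward (23.8%) and 4 downward (19.05%).

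Immediate early genes showed no shared change. Of 37 genes tested, 0 had an unadjusted p under 0.05, 18 had a log2 fold change above 0, 0 differed by more than 1 in the same direction in both generations and 3 did so in opposite directions. The median log2 fold change was -0.0037, 4 genes had separate groups upward (10.8% against 16.0% of all genes) and 3 downward (8.11% against 14.8%). *Fos* had 95.4 and 80.2 CPM at 0 h and 73.8 and 20.9 CPM at 1 h, and *Egr1* had 179 and 75.8 CPM against 140 and 38.2 CPM. *Jun* had 55.5 and 82.4 CPM against 67.1 and 67.8 CPM. *Fos* and *Egr1* thus had many reads already at 0 h, and for *Fos* the groups were separate by a narrow margin. *Atf3* had 0.364 and 1.55 CPM against 1.86 and 0.298 CPM, with differences of 2.14 and -2.12 in the generations, and *Ier2* had 34.5 and 45.4 CPM against 80.3 and 34.7 CPM. In *Dusp1* and *Btg2* the groups overlapped too. *Nr4a1*, an orphan nuclear receptor, had 13.1 and 8.84 CPM at 0 h and 5.43 and 5.60 CPM at 1 h, a log2 fold change of -0.97 ± 0.47.

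The other stress and signalling lists had no member called by edgeR. Several had medians or shares near those of the p53 targets. The median log2 fold change was 0.04 for 23 heat shock and chaperone genes, 0.04 for 23 genes of the integrated and ER stress responses, 0.06 for 12 hypoxia targets, 0.14 for 14 feedback genes of ERK signalling, 0.16 for 14 Notch and Hedgehog targets, 0.07 for 11 targets of TGF-β and BMP, 0.07 for 38 adhesion and junction genes, 0.04 for 15 clock genes and 0.14 for 14 genes of follicle dormancy. Separate groups upward were found for 28.6% of the dormancy genes, 27.3% of the TGF-β and BMP targets, 25% of the hypoxia targets and 21.1% of the adhesion and junction genes. The share was 6.67% to 13% in the other 5 lists, beside 16.0% of all genes. Separate groups downward were found for 26.7% of the clock genes, 17.4% of the integrated and ER stress genes and 15.8% of the adhesion and junction genes. In the remaining lists this share was 0% to 14.3%, beside 14.8% of all genes. *Nupr1*, a stress-induced nuclear protein, had 49.7 and 50.9 CPM at 0 h and 98.6 and 74.0 CPM at 1 h. *Chac1*, a glutathione-degrading enzyme of the ATF4 response, had 2.47 and 3.92 CPM against 0.973 and 1.53 CPM. *Slc2a1*, the glucose transporter GLUT1, had 9.18 and 10.5 CPM against 13.3 and 26 CPM. *Smad6*, an inhibitor of BMP signalling, had 0.445 and 0.608 CPM against 3.69 and 1.60 CPM. Of the junction genes, 3 were higher by more than 1 in both generations, *Pkp1*, *Cldn7* and *Cldn6*, and *Cldn11* was lower, with between 0.0404 and 3.57 CPM in each library. *Sohlh1*, a transcription factor of early oocytes, had 65.2 and 71.6 CPM at 0 h and 88.9 and 102 CPM at 1 h.

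Of 25 interferon-stimulated genes, 8 had a log2 fold change above 0 and 7 had separate groups downward (28% against 14.8% of all genes) and 3 upward (12% against 16.0%), and the median was -0.29. This median was 0.10 without the second-generation library of 0 h, -0.01 without the first-generation library of 1 h, and -0.62 and -0.73 without the first-generation library of 0 h or the second-generation library of 1 h. *Ifit1*, an antiviral protein that binds RNA, had 2.30 and 4.66 CPM at 0 h and 1.05 and 0.448 CPM at 1 h, while *Isg15*, a protein modifier related to ubiquitin, was higher, with 0.849 and 1.35 CPM against 2.27 and 3.43 CPM. Of 20 NF-κB targets, 8 had a log2 fold change above 0 and the median was -0.13, with 3 separate downward (15%) and 2 upward (10%), near the shares of all genes. *Nfkbia*, the inhibitor that NF-κB itself induces, had 56.0 and 43.2 CPM at 0 h and 78.1 and 68.4 CPM at 1 h, opposite in direction to *Cxcl1*.

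Markers of other cell types moved between the libraries as well. The 12 granulocyte markers summed to 9.78 and 472 CPM at 0 h and to 18.8 and 17.7 CPM at 1 h, with *Ngp* at 1.37 and 172 CPM against 5.11 and 3.47 CPM, so that the second-generation library of 0 h stood apart. Their median log2 fold change of -3.72 became 1.02 without that library, and *Mmp8* was higher at 1 h, with 0.121 and 0.270 CPM against 1.14 and 3.02 CPM. *Ltf* (2.14 and 58.3 CPM against 0.770 and 2.02 CPM), which was among the lower genes, is in this list. So is *Lcn2* (0.970 and 16.7 CPM against 0.608 and 0.634 CPM), a DESeq2 call, which differed by -0.61 in the first generation and -4.565 in the second. The 20 epidermis markers summed to 37.7 and 28 CPM at 0 h and to 127 and 37.9 CPM at 1 h, with *Krt5*, a keratin of basal cells, at 0.606 and 0.135 CPM against 10.8 and 0 CPM. Their median of 1.78 became 0.14 without the first-generation library of 1 h. *Asprv1* and *Krtdap* belong to this list, *Lypd3*, *Serpinb2*, *Sfn*, *Pkp1* and *Rarg* are known from skin too, and the part of epidermis in their difference was not tested.

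The 13 macrophage markers summed to 78.0 and 125 CPM at 0 h and 137 and 150 CPM at 1 h, with 12 of 13 above 0 and a median log2 fold change of 0.82. *Csf1r*, the receptor for the macrophage growth factor CSF1, had 5.46 and 8.30 CPM against 10.5 and 17.8 CPM, and *C1qa*, of the complement system, had 0.889 and 1.96 CPM against 5.88 and 3.62 CPM. These were among 6 of the 13 markers with separate groups upward (46.2% against 16.0% of all genes). Of 9 endothelial markers, 7 were above 0, and their sum was 138 and 153 CPM at 0 h and 169 and 212 CPM at 1 h, with 5 separate upward (55.6%). Of 18 stroma and theca markers, 12 were above 0, with a sum of 3838 and 3455 CPM against 4677 and 4120 CPM, and *Col1a1*, a fibrillar collagen gene, had 351 and 390 CPM against 578 and 690 CPM. Red blood cell markers went the other way, since 0 of 8 were above 0 and the sum was 3534 and 3178 CPM at 0 h and 2374 and 3082 CPM at 1 h, with 4 separate downward (50% against 14.8% of all genes). Skeletal muscle markers (9, median 0.02) and markers of surface epithelium and oviduct (13, median -0.0048) were close to the median of all genes. Of the 13 mitochondrially encoded genes, 1 was above 0 and 6 had separate groups downward (46.2% against 14.8%), with a median of -0.14, and the 80 ribosomal protein genes had a median of -0.04. edgeR called none of these genes, and DESeq2 called *Mpo*, *Lcn2*, *Asprv1* and *Krtdap* among them. After 0.2 Gy the sums were 71.9 and 74.4 CPM for macrophage, 142 and 116 CPM for endothelial, 3465 and 2467 CPM for stroma and theca, and 2199 and 2197 CPM for red blood cell markers. At that dose the endothelial and the stroma and theca sums were thus lower at 1 h than at 0 h.

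**Figure D5:**
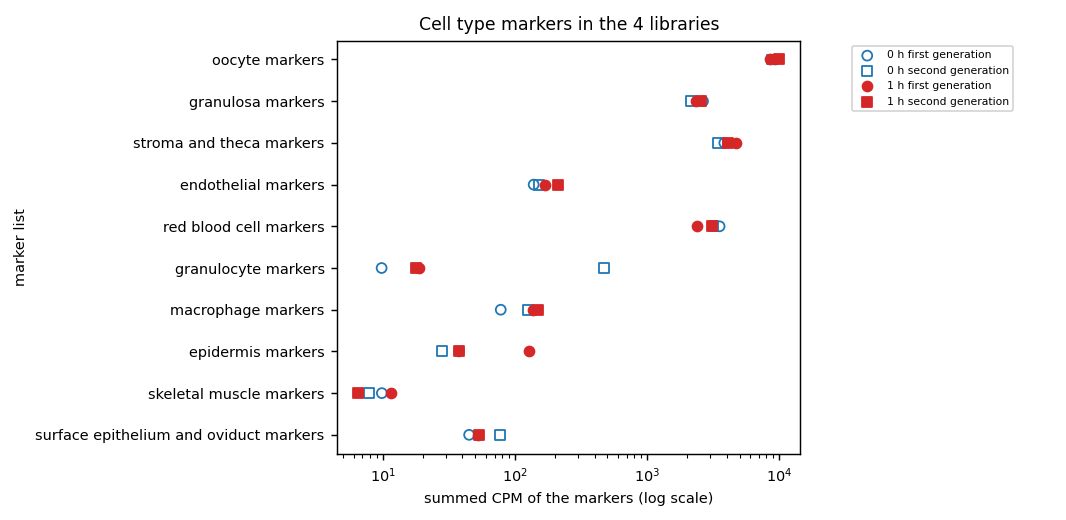
Summed CPM of 10 lists of cell type markers on a log axis, with 1 marker for each of the 4 libraries (open blue at 0 h, filled red at 1 h, circles for the first generation and squares for the second). The granulocyte sum of 472 CPM in the second-generation library of 0 h and the epidermis sum of 127 CPM in the first-generation library of 1 h stand apart from the other libraries.

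The libraries of 0.2 Gy, of the third generation with 1 library at 0 h and 1 at 1 h, were not used to choose the genes. Dose and generation cannot be told apart between them and those of 0.5 Gy. Of the 652 genes that were higher in both generations of 0.5 Gy, 356 (54.6%) were higher at 1 h of 0.2 Gy too, against 51.5% of all genes tested. Of the 746 lower genes, 337 (45.2%) were lower, against 47.9% of all genes. In a test of the difference between the doses in the change from 0 to 1 h, edgeR called 0 of 31254 genes (0.0%), with 600 (1.92%) at an unadjusted p under 0.05.

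The 0 h library of 0.2 Gy, another library of that time point, was set beside the genes that stood apart at 0.5 Gy; this comparison was chosen after the values were seen and has no test. For 11 of the 90 protein-coding genes that stood apart upward with a mean of at least 1 CPM, this library lay within or below the level of the 0 h libraries of 0.5 Gy (12.2%), for 20 it lay at or above the lower 1 h library (22.2%), and for 59 it lay between. For the 66 genes that stood apart downward, it was on the side of 0 h for 13 (19.7%), on the side of 1 h for 20 (30.3%) and between for 33. *Efcab12*, *Kcnj5*, *Cxcl1* and *Arhgap15* are examples in which it was nearer to the 1 h libraries. The protein-coding genes of at least 10 CPM that differed alike with separate groups were compared with it too. Of 16 higher genes it was on the 0 h side for 3 and the 1 h side for 4. Of 12 lower genes it was on the 0 h side for 1 and the 1 h side for 6. The 0.2 Gy library of 1 h was on the side of 1 h for 33.3% of the 90 and 33.3% of the 66 genes. Of the later libraries of 0.5 Gy, that of 2.5 h was on the side of 1 h for 38.9% of the 90 genes, those of 4 h for 27.8% (first generation) and 34.4% (second), and that of 6 h for 46.7%. For the 66 genes that stood apart downward, the shares were between 28.8% and 37.9% in these 4 libraries.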

How the data were processed

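Oocytes from ovaries of P5 CD-1 mice were sequenced with short reads from cDNA made with the SMARTER kit. The authors quantified transcripts of GRCm38 with salmon and deposited, for each library and 130740 transcripts, estimated counts (NumReads) and TPM values. The authors' tables of their own comparisons hold fold changes and p-values, and were not used. DESeq2 1.24.0 is named in the submitters' processing notes. The strand setting of the counting is not given in the sources used here, so overlapping genes cannot be told apart.

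Estimated counts were summed to 49585 genes with GENCODE M21 identifiers; 402 transcripts without a gene held 0.318% to 0.413% of the reads of the 4 libraries and were left out. Counts were rounded and filtered with filterByExpr, and the 8 libraries of 0.5 Gy were fitted with edgeR 4.0.16 (R 4.3.3, TMM factors, quasi-likelihood test, Benjamini-Hochberg adjustment), with 1 h against 0 h as the contrast. A call needed an adjusted p below 0.05 and a log2 fold change beyond 1 in either direction. The test of the difference between doses used all libraries of both doses. DESeq2 1.42.0 and limma 3.58.1 were alternatives, with other scalings, filters, pairings and each library left out in turn. Values per library are TMM-scaled CPM, and differences are of log2 CPM with a prior count of 2. TPM entered only as an alternative scale. Tests were tried on simulated counts.

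Named genes were the 12 protein-coding genes in each direction with the widest gap at a mean of at least 1 CPM, DESeq2 calls, and list members that differed by more than 1 in both generations or were set in advance as central; the 2 most abundant members of each list entered its counts and are not all named. Further genes with a mean of at least 10 CPM were named after their values were seen. Of these, 1 gene is counted but not reported here. The comparison, the lists and the genes were chosen with earlier results of these data known. Sharing of 30-base sequences was counted over transcripts, and promoters came from RefSeq. Reads are not independent molecules, so limits from counts of 0 (3 reads) cover counting error only.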

Additional observations from a re-analysis of the deposited data

How the results depend on the processing

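The count of 0 called genes between 1 h and 0 h became 2 with only the libraries of 0 and 1 h and the generation as a block, 30 without a filter on low counts and 20 with DESeq2. It was 0 to 4 when 1 library was left out, with 4 without the first-generation and 1 without the second-generation library of 0 h. With the generation as a replicate block in all 8 libraries it stayed 0 (smallest adjusted p 0.233), and with the generations exchanged at 1 and 4 h also 0 (0.719). Deviations of libraries with the same generation had correlations across all 28468 genes of 0.124 between 0 and 1 h, 0.0759 between 0 and 4 h and 0.106 between 1 and 4 h. Over the 2232 genes with at least 100 CPM, changes within the generations had SDs of 0.341 and 0.455, against 0.745 and 0.574 between libraries of a time point. The main fit held no term for the generation, while the differences within each generation followed the label. The 0 calls for the difference between doses became 14 without a filter and 2 with a block for the first and second generation, and 0 to 1 with a library left out. The 1398 genes that differed alike in both generations became 175 on the log2(TPM + 1) scale, 4024 with a threshold of 0.5, 616 with a CPM of at least 1 in 2 libraries, and 2556 to 3665 with 1 library left out, where no pairs remain. With the generations exchanged they were 1312, beside 1718 with opposite differences. The 356 genes also higher at 0.2 Gy became 178 with the CPM filter. The 0 called list members became 5 with DESeq2 and 0 to 2 with a library left out.

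The log2 fold change of *Ccng1* changed sign with the block (0.0322), without a filter (0.0035) and with limma-voom (0.0514), and that of *Jun* did too (0.0081, 0.03 and 0.0377). With 1 library left out, the sign also changed within ranges of -0.21 to 0.34 for *Mdm2*, -0.41 to 0.44 for *Ccng1*, -0.0131 to 0.27 for *Trp53inp1*, -1.30 to 0.31 for *Bbc3*, -0.43 to 0.39 for *Trp53*, -0.24 to 0.84 for *Trp63*, -0.11 to 1.51 for *Trp73*, -0.29 to 0.31 for *Jun*, -1.71 to 0.23 for *Egr1*, -1.61 to 1.58 for *Atf3*, -0.18 to 1.00 for *Ier2*, -0.50 to 0.22 for *Btg2*, -1.13 to 0.40 for *Dusp1*, -2.90 to 5.99 for *Gm10320*, -4.92 to 0.90 for *Pigr*, -4.83 to 2.01 for *S100a8*, -5.33 to 1.67 for *Ngp*, -0.0141 to 4.61 for *Ly6d* and -6.23 to 5.26 for *Krt5*. The cause was not tested. The shallowest 0 h library, with 15709549 reads, limits genes with few reads most.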
